A study of Danio rerio with 24 samples.

Results

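Fibrinogen and the blood clotting factors were followed through the livers of adult zebrafish as 10 genes chosen by symbol. They are the fibrinogen chain genes fga, FGB and FGG, the coagulation genes f2, F10, f5 and kng1, the inhibitor genes SERPINC1 and SERPIND1, and the plasminogen gene PLG. All 10 were found among the 32520 genes measured. The rule that picked them used symbols and no measured value, but earlier results of these data were known. Symbols are written as the symbol table pairs them with the Ensembl identifiers, so some stand in upper case.

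The study asked how swim training and overfeeding change zebrafish liver RNA. Adult fish of the ABTL strain (6 months or older) with no transgene named in the labels were kept at 6 fish per tank, and 24 livers were sequenced as total RNA. The 4 groups were OF-training (overfed and trained in a swim tunnel for 8 weeks, in 20 sessions), NF-training (normally fed and trained in the same way), OF-control (overfed, untrained) and NF-control (normally fed, untrained). Each group held 3 males and 3 females, which gave 8 cells of group and sex with 3 fish each. No label names a tank, so a group and its tank cannot be told apart, and p-values measure the spread between these fish.

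Most circulating clotting proteins are made by hepatocytes and secreted into the blood. In the clotting cascade, serine proteases activate one another with the help of cofactors until thrombin cuts soluble fibrinogen into fibrin, the mesh of a clot. Serpins block the proteases, and plasmin dissolves the mesh. Zebrafish share this cascade with mammals, and their nucleated thrombocytes do the work of platelets. In egg-laying females the liver also makes vitellogenin, the egg yolk precursor, in very large amounts.

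Each library held between 19315642 and 21399321 estimated counts. Vitellogenin took a lowest, median and highest share of 0.0069%, 0.0394% and 0.159% of the counts in the 12 males, against 29.3%, 70.3% and 74.5% in the 12 females. A gene can therefore have fewer reads in a female at the same level among the remaining transcripts. Levels between fish are given in counts per 1000000 (CPM) after TMM scaling, which sets the bulk of genes level. Levels between genes are given in transcripts per 1000000 (TPM), which are per length and take no account of the vitellogenin share. Of all genes, 16223 passed the filter on low counts, and all 10 clotting genes were among them. A gene is called when its adjusted p, from edgeR over all 16223 genes, is below 0.05.

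Clotting transcripts were abundant in both sexes, and fibrinogen led them. FGB, the beta chain gene, had a lowest, median and highest level of 4247, 6124 and 10016 TPM in males, against 954, 1677 and 2534 TPM in females. Among all genes of a liver its median rank by TPM was 18.5 in males and 111.5 in females. The gamma chain gene FGG had a median of 4973 TPM in males and 1131 TPM in females, and the alpha chain gene fga had 4421 TPM in males and 1152 TPM in females. The median of f2, which encodes prothrombin, was 1502 TPM in males and 643 TPM in females. It was followed by kng1 with 1189 and 456 TPM, PLG with 1172 and 497 TPM, and SERPINC1 with 1038 and 266 TPM, each pair given as males and then females. The lowest levels were those of F10, SERPIND1 and f5, with medians of 311, 301 and 212 TPM in males and 164, 83.9 and 49.2 TPM in females. Cofactor f5 thus stood last in both sexes, while fga and FGG, and likewise kng1 and PLG, changed places and overlapped in both.

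Summed over the 10 genes, clotting transcripts took a lowest, median and highest share of 1.65%, 2.13% and 3.06% of all TPM in males, against 0.41%, 0.61% and 1.01% in females. With vitellogenin transcripts left out of the total, the shares were 1.65%, 2.13% and 3.06% in males and 0.67%, 0.94% and 1.23% in females. The ranges of the sexes did not meet on either scale.

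Males had more RNA than females for 9 of the 10 clotting genes, and fibrinogen, f5 and the thrombin inhibitors differed most. In edgeR's quasi-likelihood test over all 24 fish, with group as a covariate, these 9 genes were called higher in males and 0 were called lower. Over all genes tested, 45.8% were called, 23.2% as higher in males. The median log2 fold change, male over female, was 1.20 over the 10 clotting genes and 0.06 over all genes. In CPM, the males and females did not overlap for 5 clotting genes, all higher in males, against 2.1% of all genes. In TPM that held for 9 of the 10, against 7.19% of all genes. Since liver is a bulk tissue here, fewer cells of a type and less RNA per cell cannot be told apart.

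**Figure D1:**
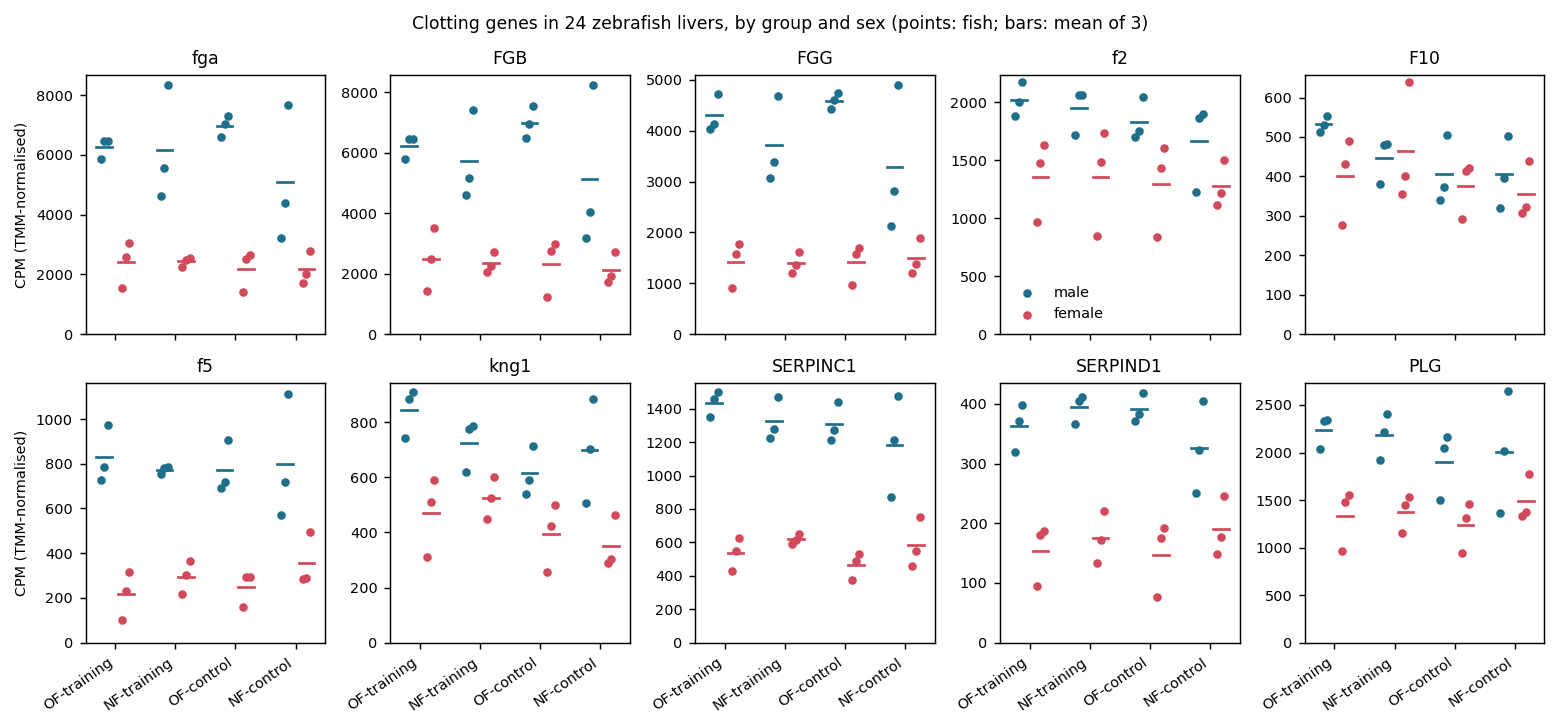
CPM after TMM scaling (vertical axes) of the 10 clotting genes in each of 24 livers, by group along the horizontal axis and by sex in colour, with each point a fish and each bar the mean of 3. The male points lie above the female points throughout for fga, FGG, f5, SERPINC1 and SERPIND1, and the sexes mix for F10, where the highest fish is a female with 640.1 CPM.

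The fibrinogen chains are the direct substrate of thrombin, and their RNA was between 2.59 and 2.75 times as high in males. In males, fga had 6475, 6468 and 5868 CPM in OF-training, 8339, 5574 and 4612 CPM in NF-training, 7293, 7047 and 6584 CPM in OF-control, and 3225, 7672 and 4396 CPM in NF-control. In females it had 3053, 2594 and 1563 CPM in OF-training, 2564, 2251 and 2499 CPM in NF-training, 2642, 2518 and 1404 CPM in OF-control, and 2799, 1706 and 1999.9 CPM in NF-control. Every male was above every female, and the closest pair was a male of NF-control (3225 CPM) and a female of OF-training (3053 CPM). Over all fish the fga difference was 1.41 (SE 0.16) on the log2 scale, with an edgeR adjusted p of 1.92e-07. FGG had a lowest, median and highest level of 2134, 4282 and 4901 CPM in males, against 915, 1480.3 and 1896 CPM in females, again with no overlap. Its log2 fold change was 1.46 (SE 0.15, adjusted p = 7.31e-08, edgeR).

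FGB followed the other chains, except in 1 male. It had a lowest, median and highest level of 3174, 6456 and 8239 CPM in males, against 1242, 2384 and 3503 CPM in females. Of the males, 11 were above every female, and the exception was the same NF-control male that was lowest for fga and FGG. The log2 fold change was 1.37 (SE 0.18, adjusted p = 1.36e-06, edgeR). In order of mean CPM of fga, the 4 male cells were OF-control, OF-training, NF-training and NF-control, and all 4 female cells lay below them. Every OF-control male was above every OF-training male, while the other male neighbours in that order overlapped, and the 3 males of NF-control alone spanned 3225 to 7672 CPM. The female cells overlapped.

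Fibrinogen is a hexamer with equal numbers of its chains. Ratios of the chain RNAs had similar medians in the sexes and spread more among females. Within a fish, fga over FGG had a lowest, median and highest TPM ratio of 0.862, 0.973 and 1.12 in males, against 0.888, 0.992 and 1.30 in females. FGB over FGG was 1.19, 1.31 and 1.47 in males, against 1.13, 1.42 and 1.72 in females. The sexes overlapped widely in both, though 11 males were below the female median for FGB over FGG. On the log2 scale the sexes differed by -0.06 for fga over FGG (p = 0.25) and by -0.07 for FGB over FGG (p = 0.22), in a two-sided permutation test of sex within groups with 100000 resamples. All 45 pairs of the 10 genes were computed in this way, and these p-values are not adjusted.

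Proteases and their cofactor split apart. Prothrombin, encoded by f2, is cut to thrombin by activated factor X, the product of F10, and activated factor V, the product of f5, speeds that step. In males, f5 had 974, 726 and 785 CPM in OF-training, 779, 754 and 785 CPM in NF-training, 907, 717 and 689.6 CPM in OF-control, and 569.8, 1112 and 717 CPM in NF-control. In females it had 316, 229.6 and 103 CPM in OF-training, 365, 218 and 300.2 CPM in NF-training, 292, 291 and 161 CPM in OF-control, and 496, 282 and 289 CPM in NF-control. Every male stood above every female. This was the largest sex difference of the 10 genes, with a log2 fold change of 1.53 (SE 0.18, adjusted p = 3.24e-07, edgeR), or 2.89-fold.

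F10 was the only one of the 10 not called between the sexes. In males it had 553, 513 and 531 CPM in OF-training, 479, 483 and 379.6 CPM in NF-training, 341, 505 and 373 CPM in OF-control, and 319.6, 395 and 503 CPM in NF-control. Females had 491, 433 and 276 CPM in OF-training, 355, 400.1 and 640.1 CPM in NF-training, 423, 414 and 292 CPM in OF-control, and 438, 306 and 323 CPM in NF-control. The sexes overlapped over most of their range. The log2 fold change was 0.16 (SE 0.13, adjusted p = 0.317, edgeR), and its 95% interval covered 0.929-fold to 1.35-fold. Only for this gene of the 10 did the call over all fish change with the scaling tried: it was called higher in males with library size alone (1.49) and in TPM with a pseudocount of 1 (0.82), the scales on which vitellogenin takes up room.

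Prothrombin RNA differed less between the sexes than fibrinogen RNA. It had a lowest, median and highest level of 1227, 1894 and 2174 CPM in males, against 842, 1457 and 1738 CPM in females. Of the males, 9 were above every female, and 5 females were below every male. The f2 difference was 0.49 on the log2 scale (SE 0.13, adjusted p = 0.00402, edgeR), or 1.41-fold.

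Kininogen, the product of kng1, carries bradykinin and takes part in the contact pathway of clotting in mammals. In males its gene had 882, 910.2 and 741 CPM in OF-training, 774, 784 and 620.4 CPM in NF-training, 592, 714 and 541 CPM in OF-control, and 508, 704 and 884 CPM in NF-control. Female levels were 591, 510.2 and 309 CPM in OF-training, 447, 599.8 and 525 CPM in NF-training, 499, 422 and 257 CPM in OF-control, and 462, 288 and 305 CPM in NF-control. Of the females, 8 were below every male and the other 4 reached the male range. The log2 fold change was 0.74 (SE 0.14, adjusted p = 0.00015, edgeR), or 1.67-fold.

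Both thrombin inhibitors were higher in males, as fibrinogen was. SERPINC1 encodes antithrombin, which in mammals blocks thrombin and activated factor X, and SERPIND1 encodes heparin cofactor II, which blocks thrombin. In males SERPINC1 had 1499, 1351 and 1457 CPM in OF-training, 1470.4, 1278 and 1227 CPM in NF-training, 1274, 1439 and 1210.0 CPM in OF-control, and 869, 1477 and 1211 CPM in NF-control. In females it had 551, 628 and 429.5 CPM in OF-training, 616, 589.8 and 651 CPM in NF-training, 528, 487 and 374 CPM in OF-control, and 754, 457 and 546 CPM in NF-control. No female reached the lowest male. The log2 fold change of 1.26 (SE 0.12, adjusted p = 9.90e-09, edgeR) had the smallest p of the 10 genes. SERPIND1 had a lowest, median and highest level of 250.3, 377 and 418 CPM in males, against 76.1, 176 and 246 CPM in females, so the sexes nearly met without overlapping. Its log2 fold change was 1.15 (SE 0.16, adjusted p = 2.72e-06, edgeR).

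PLG encodes plasminogen, the precursor of plasmin. It had a lowest, median and highest level of 1361, 2107 and 2648 CPM in males, against 939, 1410.5 and 1775 CPM in females. Of the males, 10 were above every female. The log2 fold change was 0.62 (SE 0.12, adjusted p = 0.000294, edgeR), or 1.53-fold, which is smaller than that of any fibrinogen chain.

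Leaving out any 1 of the 24 fish left 9 of the 10 genes called, and the fold changes of the 9 kept their direction. DESeq2 and limma voom called the same number. With library size alone every log2 fold change rose, to between 1.49 and 2.90. That setting moved the median of all 16223 genes to 1.44, so relative to it the clotting genes lay between 0.05 and 1.46. With vitellogenin left out and the remaining library size used alone, a setting chosen after seeing the data, their log2 fold changes lay between 0.07 and 1.47. Relative to the median of all genes in that setting (-0.04), they lay between 0.11 and 1.51.

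**Figure D2:**
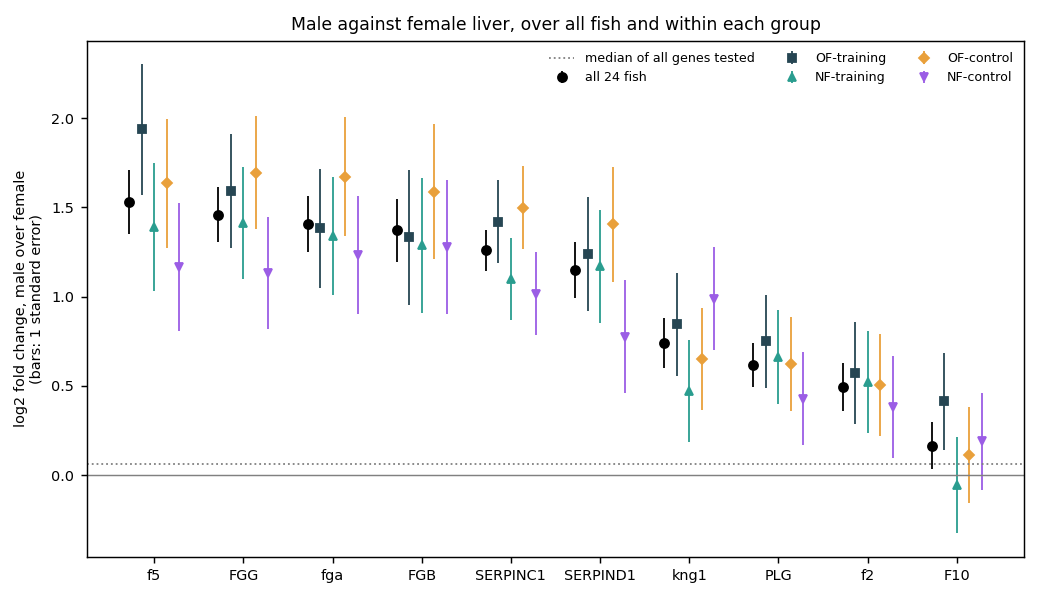
Log2 fold change in CPM, male over female (vertical axis), of each clotting gene over all 24 fish (black) and within each group of 6 fish (colours), with bars of 1 standard error and a dotted line at the median of all genes tested (0.06). Genes run from f5 (1.53) to F10 (0.16), and the 4 groups lie around the common value.

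Within each group, where 3 males faced 3 females, a sex difference was called for part of the 10 genes. In OF-training 7 of the 10 genes were called higher in males, against 18.7% of all genes called and 7.99% called higher. In NF-training 6 were called (10.1% of all genes, 4.21% higher), in OF-control 6 (20.6%, 9.3% higher) and in NF-control 6 (14.2%, 5.62% higher). The 3 fibrinogen chains, f5 and SERPINC1 were called in all 4 groups. SERPIND1 was called in OF-training, NF-training and OF-control, and kng1 in OF-training and NF-control. In none of the 4 groups did edgeR call f2, PLG or F10, and the log2 fold change of F10 was -0.06 in NF-training. DESeq2 called PLG in OF-training and NF-training. The log2 fold change of f5 was 1.94 in OF-training, 1.39 in NF-training, 1.64 in OF-control and 1.17 in NF-control, each with a standard error between 0.36 and 0.37. These counts rest on few fish. In NF-control 1 gene, SERPINC1, was called without replicate 2, 3 or 5, and 0 were called when its 6 fish were fitted alone. In NF-training 3 genes were called without replicate 2 or 6 (fga, FGG and SERPINC1) and without replicate 4 (FGG, f5 and SERPINC1). In OF-training 4 were called without replicate 3, namely fga, FGG, f5 and SERPINC1.

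Whether training or overfeeding changed the sex difference was tested with interaction terms. For training in normally fed fish the log2 interaction (male minus female) lay between -0.52 (kng1) and 0.39 (SERPIND1), and edgeR called 0 of the 10 genes and 0% of all genes. For overfeeding in untrained fish it lay between -0.34 (kng1) and 0.63 (SERPIND1), again with 0 of the 10 and 0% of all genes called. Of the 10 genes, 0 had an unadjusted p below 0.05 in either test, against 7.47% of all genes for training and 5.57% for overfeeding, and DESeq2 called 0 of the 10. The intervals were wide, from 0.389-fold to 2.50-fold for training and from 0.440-fold to 2.95-fold for overfeeding.

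Because the genes differed by unequal amounts, the balance between them differed between the sexes as well, and such ratios within a fish do not depend on scaling. The TPM ratio f5 over F10, a cofactor over its protease, was 0.576, 0.689 and 1.14 in males (lowest, median and highest), against 0.152, 0.272 and 0.46 in females. All males were above all females, and on the log2 scale of counts the sexes differed by 1.40. This was the largest difference of the 45 pairs. Because f5 had the largest and F10 the smallest fold change of the 10 genes, the ratio restates those values and adds no separate evidence. Prothrombin over antithrombin, f2 over SERPINC1, was 1.28, 1.43 and 1.63 in males, against 1.33, 2.56 and 3.35 in females. Here 1 female fell into the male range, and the difference was -0.74 on the log2 scale. PLG over FGG was 0.152, 0.245 and 0.335 in males, against 0.361, 0.447 and 0.513 in females, with no overlap.

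The unadjusted p-values of the permutation test were 3e-05 for f5 over F10, 8e-05 for f2 over SERPINC1 and 3e-05 for FGG over PLG. Each of these pairs joins genes with unlike fold changes in the same fish. The p-values therefore restate those differences and add no separate evidence. Of the 45 pairs, 31 had an adjusted p below 0.05 in that test. No share over pairs of other genes was computed, so this count cannot be called particular to the clotting genes. For SERPINC1 over SERPIND1, the pair of inhibitors, the difference in means was 0.07 on the log2 scale (permutation p = 0.51). Even so, all 12 males were above the female median, and the SD was 0.12 in males and 0.31 in females. Fibrinogen made up a lowest, median and highest share of 65.7%, 72.9% and 79.2% of the clotting TPM in males, against 58.6%, 63.2% and 67.5% in females.

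**Figure D3:**
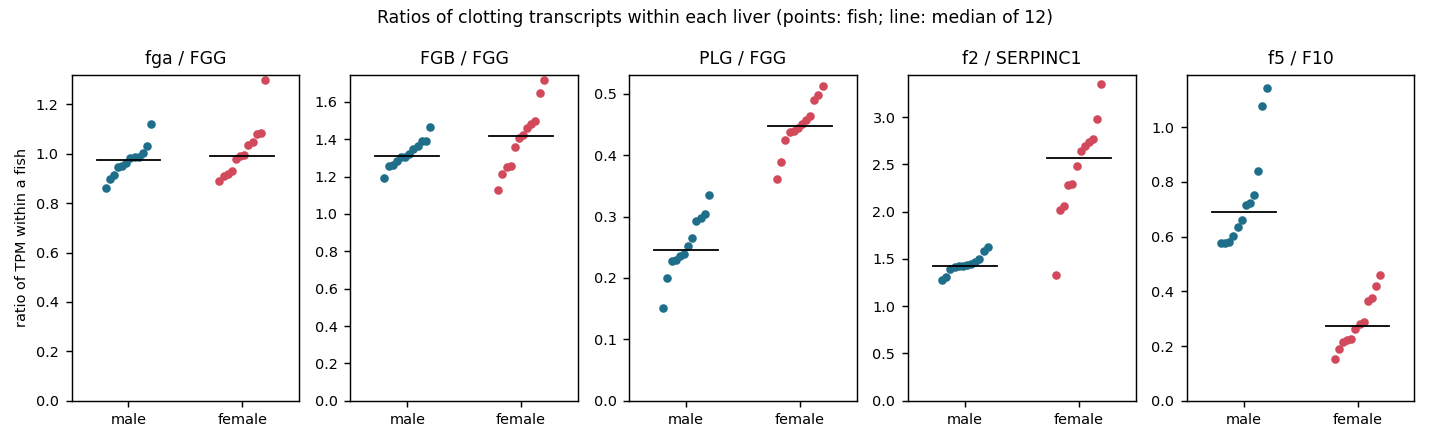
Ratio of 2 clotting transcripts in TPM within each liver (vertical axes, from 0), males to the left of females, with each point a fish in ascending order and a line at the median of 12. The sexes overlap for fga over FGG and FGB over FGG, while PLG over FGG is lower in all males and f5 over F10 is higher in all males.

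The clotting genes also varied together from fish to fish within a cell. After the mean of each cell of group and sex was subtracted, log2 CPM of fga correlated with that of FGG at a Pearson r of 0.97 and with that of FGB at 0.96 over the 24 fish, given as a description. The weakest pair was F10 with f2 at 0.36. The spread within cells ran from an SD of 0.24 in log2 CPM for SERPINC1 to 0.47 for FGB. With the mean of the 3 fibrinogen chains as a guide, PLG (r = 0.87), f5 (0.87), SERPIND1 (0.86) and SERPINC1 (0.85) ranked 3 to 6 among all other genes. The remaining clotting genes ranked 73 (kng1, 0.71), 90 (f2, 0.70) and 748 (F10, 0.53).

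Outside the 10 genes, the 5 most like fibrinogen were AGXT (r = 0.93), which encodes a peroxisomal aminotransferase, cbln8 (0.92), si:dkey-262k9.2 (0.83), the apolipoprotein gene apoc2 (0.82) and CBLN2 (0.81). CBLN2 was near the detection floor with a mean log2 CPM of -1.24. All these correlations share the same libraries and the same scaling.

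Among the 12 females, F10 was lower in those with a larger vitellogenin share. Pearson's r of its log2 CPM with that share was -0.78 (permutation p = 0.00177) and Spearman's rho was -0.84 (permutation p = 0.00113). Without the 2 females farthest from the median share, r was -0.61. For SERPINC1 r was -0.66 (permutation p = 0.0189) and rho -0.73 (permutation p = 0.00833), and without those 2 females r was -0.55. For kng1 r was -0.47 (permutation p = 0.123) and rho -0.73 (permutation p = 0.00974), and without them r was -0.64. The other 7 genes had r between -0.41 and 0.17 and rho between -0.55 and -0.27, with p above 0.05. Without the 2 females their r lay between -0.57 and -0.01, and that of f2 turned to -0.57 from 0.17. Thus rho was below 0 for all 10 genes, and no test compared F10 with the others. In all, 10 relations were computed, and these p-values are unadjusted. No other gene was set against the vitellogenin share, so the relation cannot be called particular to any of the 10. The test exchanged the 12 females without regard to group. Adjusted over the 10 genes, the permutation p of Pearson's r was 0.0177 for F10, 0.0943 for SERPINC1 and 0.409 for kng1. That of Spearman's rho was 0.0113 for F10 and 0.0325 for both SERPINC1 and kng1. Both measures come from the same library, and the female with the lowest share, 29.3%, also had the highest F10 level, 640.1 CPM. The 4 groups hold 3 females each, too few for a value within a group.

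**Figure D4:**
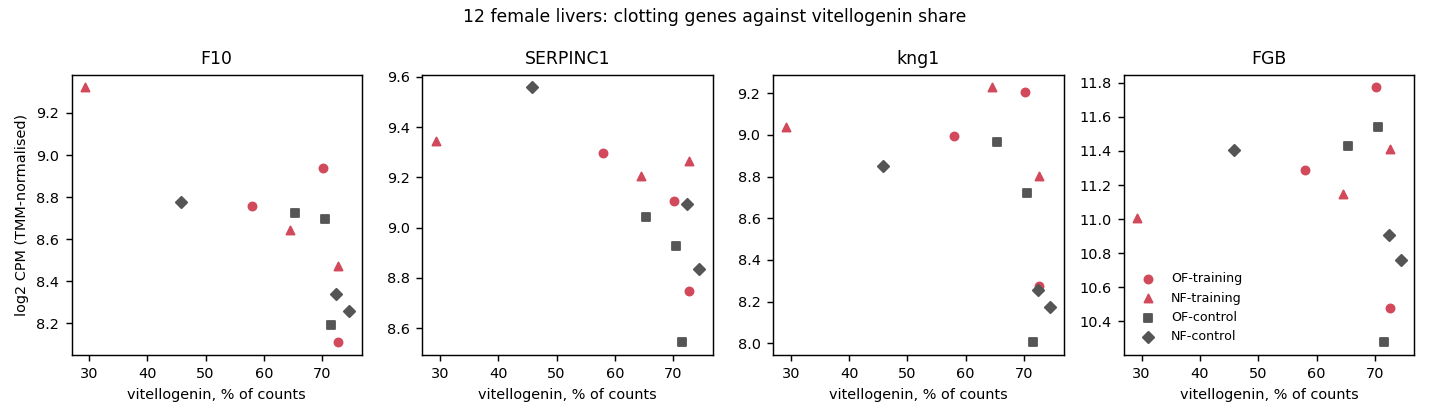
Log2 CPM after TMM scaling (vertical axes) of F10, SERPINC1, kng1 and FGB against the vitellogenin share of counts in percent (horizontal axes) in 12 female livers, with a marker shape for each group. F10 is highest in the female at 29.3% and lowest in a female at 72.6%, with r = -0.78, and FGB has r = -0.15.

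No change of a clotting gene with training was called. In NF-training against NF-control, edgeR called 0 of the 10 genes, and 0 had an unadjusted p below 0.05. DESeq2 also called 0. Over all genes, edgeR called 0.173%, and 11.1% had an unadjusted p below 0.05. The log2 fold changes lay between -0.17 (f5) and 0.32 (kng1), 8 of them above 0, and the median was 0.13 beside 0.0019 for all genes. The 95% intervals of the 10 genes lay between 0.623-fold and 1.65-fold.

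In OF-training against OF-control the result was alike, with 0 of the 10 genes called by edgeR or DESeq2 and 0 at an unadjusted p below 0.05. Over all genes 0.00616% were called and 5.26% had an unadjusted p below 0.05. The log2 fold changes lay between -0.05 (FGG) and 0.36 (kng1), and the intervals between 0.682-fold and 1.70-fold. The largest value in both training comparisons was that of kng1. In CPM it averaged 657 ± 232 in OF-training and 504 ± 156 in OF-control, and 625 ± 134 in NF-training and 525 ± 232 in NF-control (SD, n = 6 each). The ranges of trained and untrained fish overlapped in each sex, except in the 3 males of OF-training, which all lay above the 3 males of OF-control. In edgeR, kng1 had an adjusted p of 0.93 in overfed fish (log2 fold change 0.36, SE 0.20, interval -0.05 to 0.76) and 0.576 in normally fed fish (0.32, SE 0.20, interval -0.09 to 0.72).

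**Figure D5:**
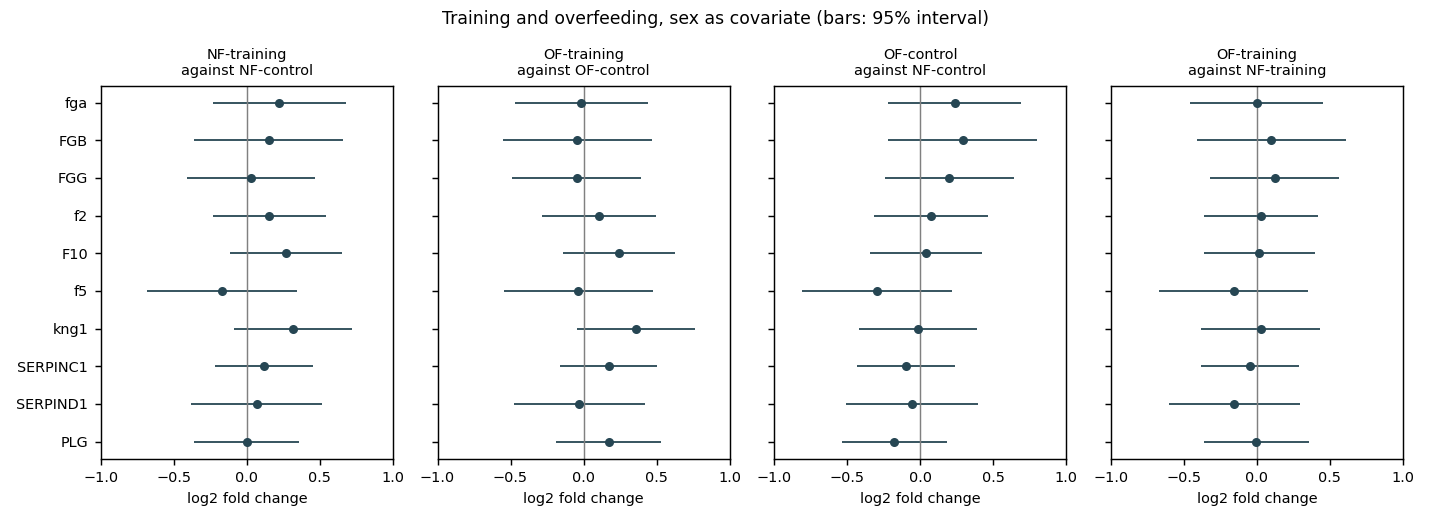
Log2 fold change (horizontal axes) of the 10 clotting genes in the 4 comparisons of training and overfeeding, with sex as a covariate, as points with 95% intervals. Every interval includes 0, and kng1 lies farthest to the right in both training comparisons (0.32 and 0.36).

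Overfeeding gave the same picture. In OF-control against NF-control, edgeR and DESeq2 called 0 of the 10 genes, and 0 had an unadjusted p below 0.05, where edgeR called 0% of all genes and 11.3% had an unadjusted p below 0.05. The log2 fold changes lay between -0.30 (f5) and 0.29 (FGB), 5 on each side of 0, with intervals between 0.571-fold and 1.74-fold. All 3 fibrinogen chains were above 0, with 0.24 for fga, 0.29 for FGB and 0.20 for FGG, and none passed the test. Fitted in males alone their values were 0.43, 0.42 and 0.46, and in females alone 0.02, 0.14 and -0.08, each with a standard error of 0.28 or more.

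In OF-training against NF-training, 0 of the 10 genes were called by edgeR or DESeq2 and 0 had an unadjusted p below 0.05, with 0% of all genes called and 9.01% at an unadjusted p below 0.05. The log2 fold changes lay between -0.16 (f5) and 0.12 (FGG), and the intervals between 0.627-fold and 1.53-fold. For the interaction of training and feeding the values lay between -0.24 (fga) and 0.17 (PLG), with 0 of the 10 and 0% of all genes called by edgeR and 0 of the 10 by DESeq2. Again 0 of the 10 had an unadjusted p below 0.05, against 4.47% of all genes. The 4 comparisons share groups of fish in pairs.

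Further genes of the cascade were followed in lists of clotting, anticoagulant and fibrinolytic genes. Of the other procoagulant and processing genes, 22 were found and 16 passed the filter. Between the sexes 7 were called higher in males and 4 lower, beside 45.8% of all genes called and 23.2% called higher, and their log2 fold changes had a median of 0.15 (0.06 over all genes). F9, which encodes the vitamin K-dependent factor IX, had 80.3 CPM as its median in males and 35.8 CPM in females, with no overlap (log2 fold change 1.14, SE 0.11, edgeR adjusted p = 2.42e-08). Another factor IX entry, f9a, had a median of 42.5 CPM in males and 45.4 CPM in females. Its ranges overlapped widely, and DESeq2 did not call it between the sexes. A gene named F7 (ENSDARG00000100782), for the factor that starts the cascade with tissue factor, was also higher in males (0.71, SE 0.17, adjusted p = 0.00171, edgeR). The other F7 entries had more RNA and overlapping sexes. Their medians in males and females were 230 and 183 CPM (ENSDARG00000075827) and 193 and 135 CPM (ENSDARG00000034862). DESeq2 did not call every F7 entry between the sexes. VKORC1L1, which recycles vitamin K, was higher in males by 0.46 (SE 0.10, adjusted p = 0.000994, edgeR).

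LMAN1 and MCFD2 ran in the opposite direction to f5. Together their products form the receptor that carries factors V and VIII out of the endoplasmic reticulum in mammals. LMAN1 had a lowest, median and highest level of 8.64, 15.7 and 27.4 CPM in males, against 73.6, 312 and 549 CPM in females. MCFD2 had 18.3, 27.1 and 38.6 CPM in males, against 198, 392 and 559 CPM in females. Neither gene showed any overlap of the sexes, whereas every male was above every female for f5. The share of all genes with every male lower is not given here. For f8, the factor VIII gene, the median was 9.94 CPM in males and 6.02 CPM in females. The ranges of f8 overlapped, and DESeq2 called it between the sexes. LMAN1 fell by 4.13 (SE 0.29, adjusted p = 1.67e-10, edgeR) and MCFD2 fell by 3.92 (SE 0.18, adjusted p = 1.79e-13, edgeR) on the log2 scale in males. Both kept that direction under every scaling tried, with values of -2.64 and -2.48 under library size alone. VKORC1, the vitamin K epoxide reductase gene, was lower in males by TMM (log2 fold change -0.87, adjusted p = 0.00131, edgeR) but had a value of 0.52 with library size alone.

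Of 11 other anticoagulant genes, all passed the filter, 7 were called higher in males (23.2% over all genes) and 0 lower, and their median log2 fold change was 0.46. Protein S and protein C act together to inactivate factors V and VIII in mammals. The protein S gene pros1 differed by 1.19 (SE 0.17, adjusted p = 6.46e-06, edgeR) and a protein C gene, PROC (ENSDARG00000093079), by 0.68 (SE 0.13, adjusted p = 0.000192, edgeR). The serpin gene serpina10a differed by 0.78 (SE 0.13, adjusted p = 4.90e-05, edgeR). Its more expressed relative serpina10b had a median of 422 CPM in males and 444 CPM in females. The ranges of serpina10b overlapped widely, and DESeq2 did not call it between the sexes.

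Of 11 further fibrinolysis genes, 10 passed the filter, 7 were called higher in males (23.2% over all genes) and 0 lower, and their log2 fold changes had a median of 0.62. The carboxypeptidase gene CPB2, whose product slows fibrinolysis, differed by 0.61 (SE 0.12, adjusted p = 0.000223, edgeR). The antiplasmin gene serpinf2a differed by 0.63 (SE 0.15, adjusted p = 0.00117, edgeR).

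In the training and overfeeding comparisons edgeR called 0 genes of these 3 lists, and DESeq2 called 1, serpina10a, as lower in OF-training than in NF-training. Under training in normally fed fish the unadjusted p was below 0.05 for 3 of 16 procoagulant, 2 of 11 anticoagulant and 2 of 10 fibrinolysis genes, beside 11.1% of all genes. In overfed fish it was so for 2, 1 and 1 of them, beside 5.26% of all genes. The antiplasmin gene serpinf2a had a log2 fold change of 0.33 (SE 0.21, adjusted p = 0.587, edgeR) with training in normally fed fish and 0.48 (SE 0.21, adjusted p = 0.916, edgeR) in overfed fish.

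Markers of the cells a liver sample can hold were read beside the sex difference, in which 45.8% of all genes were called and 23.2% were called higher in males. Of 8 hepatocyte markers 5 were called higher in males and 0 lower, and their summed level was 169500, 218214 and 271136 TPM in males (lowest, median and highest), against 31019, 71727 and 171863 TPM in females. Thrombocyte markers, of which 4 of 5 passed the filter and 2 were called higher in males, summed to 2.91, 8.81 and 15.8 TPM in males, against 1.85, 3.35 and 5.39 TPM in females. Of 4 erythrocyte markers 2 were called higher in males, and they summed to 134, 391 and 868 TPM in males, against 26.0, 135 and 363 TPM in females. Endothelial markers had 3 of 5 called higher in males, and they summed to 21.8, 27.0 and 38.4 TPM in males, against 10.8, 14.6 and 26.3 TPM in females. Of 8 exocrine pancreas markers 0 were called by edgeR or DESeq2 over all fish and 0 had an unadjusted p below 0.05, and they summed to 81.6, 355 and 942 TPM in males, against 5.36, 146 and 412 TPM in females. Of 5 leukocyte markers 0 were called by edgeR or DESeq2 over all fish and 0 had an unadjusted p below 0.05, with sums of 67.7, 88.9 and 478 TPM in males, against 64.1, 78.7 and 214 TPM in females. None of 7 ovary markers passed the filter, and they summed to 0.754, 1.23 and 1.56 TPM in males, against 0.362, 1.07 and 5.84 TPM in females. These TPM sums take no account of the vitellogenin share, so they can read lower in females without a lower CPM. In edgeR's log2 fold changes, 7 of 8 hepatocyte, 2 of 4 thrombocyte and 4 of 4 erythrocyte markers were higher in males. So were 4 of 5 endothelial, 7 of 8 exocrine pancreas and 1 of 5 leukocyte markers, whether called or not. Within NF-training, edgeR called 1 leukocyte marker, cd74a, lower in males (log2 fold change -1.07, SE 0.33, adjusted p = 0.043) and DESeq2 called 2, CORO1A and cd74a, as lower. Of the 8 exocrine pancreas markers edgeR called 0 and DESeq2 called 4 higher in males (prss1, a CPA1 gene, ela2l and ela3l), and their log2 fold changes in edgeR had a median of 2.13. The unadjusted p was below 0.05 for 4 of the 5 and 7 of the 8, beside 25.7% of all genes. In the other 3 groups 0 leukocyte and 0 exocrine pancreas markers were called by either tool. These genes were named after their values were seen. The part of these cells in the difference between the sexes was not tested.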

How the data were processed

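Livers of 24 zebrafish were sequenced on BGISEQ-500. The authors trimmed reads with Trim Galore 0.6.4 and quantified them with Kallisto (0.4.6 in the submitters' processing notes) against GRCz11. They deposited 2 values per gene and fish, an estimated count and a TPM. The step from transcripts to genes and the strand setting are not given in the sources used here, so reads shared by close paralogs or antisense neighbours may be split between them.

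Here, deposited estimated counts were rounded and tested with edgeR 4.0.16 (R 4.3.3) by the quasi-likelihood method, with TMM scaling, a low-count filter (minimum count 10, by group), group and sex as terms, or cells of group and sex for tests within groups and interactions, and Benjamini-Hochberg adjustment over 16223 genes. CPM were computed from the same scaling, and log2 CPM used a prior count of 2. Intervals are at 95%. The fit was tested on simulated data. Alternatives were DESeq2 1.42.0, limma 3.58.1 (voom, and log2 of TPM plus 1 or 0.1), other scalings and filters, vitellogenin left out or as a covariate, 1 sex alone, a replicate block, and leaving out each fish.

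The 10 genes and all lists were chosen with earlier results of these data known. All 10 are described. In the other lists, up to 3 genes per direction with the smallest adjusted p are named, or the most expressed by TPM where none passed, and the 5 genes most correlated with fibrinogen. 1 gene so chosen is not reported here. Exact depth per fish is the sum of its estimated counts, and 24 fish limit the precision.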

Additional observations from a re-analysis of the deposited data

Results flagged for a closer look

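Outlying fish were sought in 40 groups of 6 fish (10 clotting genes in 4 groups), each with 3 males and 3 females pooled. In 2 of them a fish had a gap to its nearest neighbour that was large for the range of the group. Chance gives about 1 in 20 where all 6 fish come from 1 common distribution. That rate does not hold for genes whose level differs between the sexes, so the number of flags cannot be set against it. In NF-training, the female of replicate 3 had the lowest f2 level, with a log2 CPM of 9.73, and the next fish had 10.54. Vitellogenin took 29.3% of the counts of that female, the lowest share among the 12 females. In OF-training, the female of replicate 3 had the lowest F10 level, with a log2 CPM of 8.11, and the next fish had 8.76. The causes were not tested.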

How the results depend on the processing

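Over all fish, 9 clotting genes were called between the sexes under every alternative except library size alone on all counts and TPM, where F10 made it 10. Of 350 values of single genes, 347 kept their direction and their side of the threshold. Within groups the counts moved more. In NF-control, where 6 genes were called, there were 0 with its 6 fish alone and 10 with library size alone or with TPM at either pseudocount. In OF-control 10 were called with library size alone, against 6. Leaving out a fish gave 1 to 7 genes in NF-control, 3 to 6 in NF-training, 6 to 6 in OF-control and 4 to 8 in OF-training. The 70 treatment and interaction values of the clotting genes were computed 2700 times under alternatives. The threshold was passed by 0 of these, 252 changed sign, and the lowest adjusted p was 0.364 (kng1, NF-training against NF-control without NF-control replicate 6).

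Replicate numbers gave no clear sign of pairing the fish. The 36 same-numbered pairs had a mean correlation of 0.015, and 8 of them exceeded 0.1. For 180 pairs with other numbers the mean was -0.00299, and 38 of them exceeded 0.1. With a replicate block, 9 clotting genes and 6555 of all genes were called between the sexes, against 7425 without it. No paired analysis was possible within groups or for overfeeding and sex, where number and sex could not be separated.

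Over all genes, DESeq2 called 159 in NF-training against NF-control (edgeR 28, library size alone 3, those 12 fish alone 2, TPM 74 and 60), 85 in OF-control against NF-control (edgeR 0), 8 in OF-training against OF-control (edgeR 1) and 13 in OF-training against NF-training (edgeR 0). Leaving out a fish gave 2 to 49 in the first comparison. Library size alone called 14025 of 14428 genes higher in males, and TPM 10007 of 11324, against 3757 of 7425. The median of all genes was then 1.44 and 0.36, against 0.06. With vitellogenin left out and the remaining library size used alone, that median was -0.04. The cause was not tested.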

Other observations

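Acute phase proteins share their secretion route with fibrinogen. Of 19 such genes that passed the filter, edgeR called 7 higher in males and 3 lower between the sexes. This stood beside 45.8% of all genes called and 23.2% called higher. With both directions together, the share called was near that of all genes. The hemopexin gene hpxa, whose product binds heme, averaged 7743 ± 2453 CPM in males and 411 ± 364 CPM in females (SD, n = 12 each), a log2 fold change of 4.30 (SE 0.42, adjusted p = 2.39e-08, edgeR). The fetuin gene ahsg1 differed by 0.93 (SE 0.15, adjusted p = 2.56e-05, edgeR) and ITIH2 by 0.74 (SE 0.10, adjusted p = 2.94e-06, edgeR). Serum amyloid gene SAA2 had a log2 fold change of -5.14 (SE 1.09, adjusted p = 0.000495, edgeR), but its median was 0.0688 CPM in males and 0.726 CPM in females, and 1 female reached 191 CPM. DESeq2 did not call SAA2 over all fish, but called it lower in males within OF-control and within NF-training. The low-expressed crp6 (-2.50) and crp7 (-2.13) were also called lower in males.

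Of 19 regulators of liver secretory genes, 8 were called higher in males and 2 lower. Over all genes 45.8% were called and 23.2% were called higher. With both directions together, the share called was again near that of all genes. HNF4A, a nuclear receptor of hepatocytes, averaged 143 ± 31.2 CPM in males and 64.9 ± 20.4 CPM in females, a log2 fold change of 1.12 (SE 0.17, adjusted p = 8.90e-06, edgeR). The forkhead gene FOXA2 was higher in males by 0.58, while foxa3 (-1.71) and CEBPA (-1.67) were lower, under each scaling tried. In the training and overfeeding comparisons edgeR and DESeq2 called 0 genes of either list, where the unadjusted p was below 0.05 for 2 acute phase genes and 3 regulators, of 19 each, in NF-training against NF-control, beside 11.1% of all genes.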
